A study of Mus musculus with 13 samples.

Results

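Epidermal differentiation is run by a small set of transcription factors, and 10 of them are described here in basal cell carcinoma (BCC) of mice: Trp63, Klf5, Grhl1, Grhl3, Ovol1, Zfp750, Klf4, Gata3, Prdm1 and Dlx3. They were taken by symbol from a table of 21100 genes, and all 10 passed the low-count filter that left 14390 genes for testing. Bulk RNA sequencing compared 9 tumors of a genetically engineered model (GEM-BCC, 7 mice) with 4 tumors of a transplantable model (Tp-BCC, 4 mice). GEM-BCC tumors were intradermal and arose in female Ptch1+/- K14-CreER2 p53fl/fl mice after 3 injections of 300 µg tamoxifen and 4 Gy of X-ray. Tp-BCC tumors grew under the skin of the flank in female Ptch1+/-p53fl/fl mice that received 2000000 tumor cells each. All animals thus carried 1 mutant Ptch1 allele, the gene of the Hedgehog receptor that restrains the pathway, together with floxed p53. In the GEM-BCC model the K14 promoter drives Cre in basal keratinocytes, so p53 is lost there.

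Several facts limit the comparison. All Tp-BCC tumors descend from a single GEM-BCC tumor that was passaged in mice, GEM2 and GEM3 came from 1 mouse, and so did GEM7 and GEM8. The labels put every GEM-BCC library in batch 1 and every Tp-BCC library in batch 2, so model and batch cannot be told apart. The GEM-BCC libraries held 28075317 to 32629102 counts and the Tp-BCC libraries 15388027 to 17494912. All 12 BCC tumor cell markers were measured. Krt5 was at 4680 to 10690 CPM (read counts scaled to a common library size) in GEM-BCC tumors and 3726 to 10350 in the transplanted ones. Gli1, a Hedgehog target, was at 376 to 804 and 674 to 965 CPM, and Ptch1 at 157.9 to 461.8 and 60.97 to 186.7 (GEM-BCC first). No normal skin was compared. Log2 CPM followed the GC content of transcripts upward in TP2, TP4 and GEM1 (Spearman rho across genes 0.594, 0.591 and 0.365) and downward in TP1 and TP3 (−0.389 and −0.473), with the other GEM-BCC tumors at −0.312 to −0.15. Members whose call differed between TP1 with TP3 and TP2 with TP4, or whose change differed widely, are given for both pairs; counts over gene lists rest on all libraries.

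In the interfollicular epidermis, basal cells held by p63 divide, leave the basement membrane and switch on keratins, desmosomal cadherins and finally the proteins and lipids of the cornified envelope. The grainyhead-like factors, OVOL1, ZNF750 (Zfp750 in mice), KLF4 and PRDM1 act at successive steps of this program, and GATA3 and DLX3 act both there and in the hair follicle. BCC is a tumor of basaloid keratinocytes driven by Hedgehog signalling, in which cornification is sparse. In bulk tumors, fewer cells of a type and less RNA per cell cannot be told apart.

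RefSeq promoter windows (GRCm38.p6, 300 bases around the annotated start) matched 5 of the 10 genes: Klf4, Grhl1, Grhl3, Gata3 and Prdm1. Trp63, Klf5, Ovol1, Dlx3 and Zfp750 had no entry. The read counts were made on GRCm39, so these coordinates belong to the windows and not to the counts. Klf4 is shown because it was the member that was higher in Tp-BCC tumors, and Grhl1 and Grhl3 because they are 2 of the members that were lower and belong to 1 family. The windows are chr4:55532426-55532725 on the minus strand for Klf4, chr12:24572037-24572336 on the plus strand for Grhl1 (the first of 2 windows) and chr4:135573583-135573882 on the minus strand for Grhl3. Each is written 5′ to 3′, and capitals mark CACCC (the core bound by KLF factors), GGGCGG (GC box), CCAAT or TATAA on either strand.
Klf4: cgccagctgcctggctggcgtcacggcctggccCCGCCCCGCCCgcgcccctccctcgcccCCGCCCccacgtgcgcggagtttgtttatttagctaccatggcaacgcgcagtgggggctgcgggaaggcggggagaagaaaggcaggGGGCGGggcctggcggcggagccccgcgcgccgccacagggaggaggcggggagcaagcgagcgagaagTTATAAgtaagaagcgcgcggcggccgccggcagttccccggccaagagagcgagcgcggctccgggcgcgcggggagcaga
Grhl1: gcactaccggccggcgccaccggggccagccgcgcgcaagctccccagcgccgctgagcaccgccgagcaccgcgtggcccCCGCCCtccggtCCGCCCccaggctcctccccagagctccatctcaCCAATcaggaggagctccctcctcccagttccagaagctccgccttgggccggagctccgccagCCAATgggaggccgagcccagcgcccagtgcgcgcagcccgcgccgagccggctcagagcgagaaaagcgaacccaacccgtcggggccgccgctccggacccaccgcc
Grhl3: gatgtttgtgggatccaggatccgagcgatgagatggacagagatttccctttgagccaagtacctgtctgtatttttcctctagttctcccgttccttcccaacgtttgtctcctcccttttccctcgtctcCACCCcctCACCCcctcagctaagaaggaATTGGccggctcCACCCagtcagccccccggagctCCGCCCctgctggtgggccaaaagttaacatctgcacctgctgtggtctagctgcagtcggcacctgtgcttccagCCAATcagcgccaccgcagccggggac
The Klf4 window held 4 matches of GGGCGG, of which neighbours can share bases, and 2 of TATAA, which overlap on opposite strands of 1 palindrome. That of Grhl1 held 2 matches of GGGCGG and 2 of CCAAT, and that of Grhl3 held 3 of CACCC, 1 of GGGCGG and 2 of CCAAT. Among all 32851 windows of 300 bases, 57.5% held CACCC, 35.7% GGGCGG, 37.4% CCAAT and 24.9% TATAA on either strand, so these matches are common ones. AACCNGTT, the site bound by grainyhead-like factors, is in 2.09% of all windows, and AGATAA, to which members of the GATA family bind, in 11.2%. Neither was matched in the windows of the 5 genes, which says only that these letters are not in them. The windows of Klf4 and Grhl1 were 74.3% and 75.3% GC and that of Grhl3 58.3%, beside a median of 52.7% over all windows.

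Of the 10 members, 6 had an adjusted p under 0.05 between the models, 5 of them lower and 1 higher in Tp-BCC tumors (edgeR quasi-likelihood test, Benjamini-Hochberg adjustment over all tested genes). Over all tested genes the share was 19.4%, with 8.35% lower and 11.1% higher. The higher gene was Klf4, and the lower ones were Ovol1, Grhl3, Zfp750, Grhl1 and Gata3. With the study's added threshold of an absolute log2 fold change above 2, which the study set on shrunken DESeq2 folds and which is applied here to unshrunken edgeR folds, Ovol1, Grhl3 and Zfp750 were called, all lower, where 5.57% of tested genes were called and 3.21% were called lower. Trp63, Klf5, Prdm1 and Dlx3 did not pass. The median log2 fold change (Tp-BCC over GEM-BCC) of the 10 was −1.37, and that of all tested genes −0.03. The fitted change was below 0 for 9 of the 10, and for 51.4% of all tested genes. The CPM of the models did not overlap for Klf4, Grhl3 and Ovol1, as for 9.95% of all tested genes, 4.45% with Tp-BCC lower. Grhl3 and Ovol1 had at least 10 counts only in GEM-BCC tumors and so entered the test through the model in which they were high; their places in these counts follow in part from that.

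**Figure D1:**
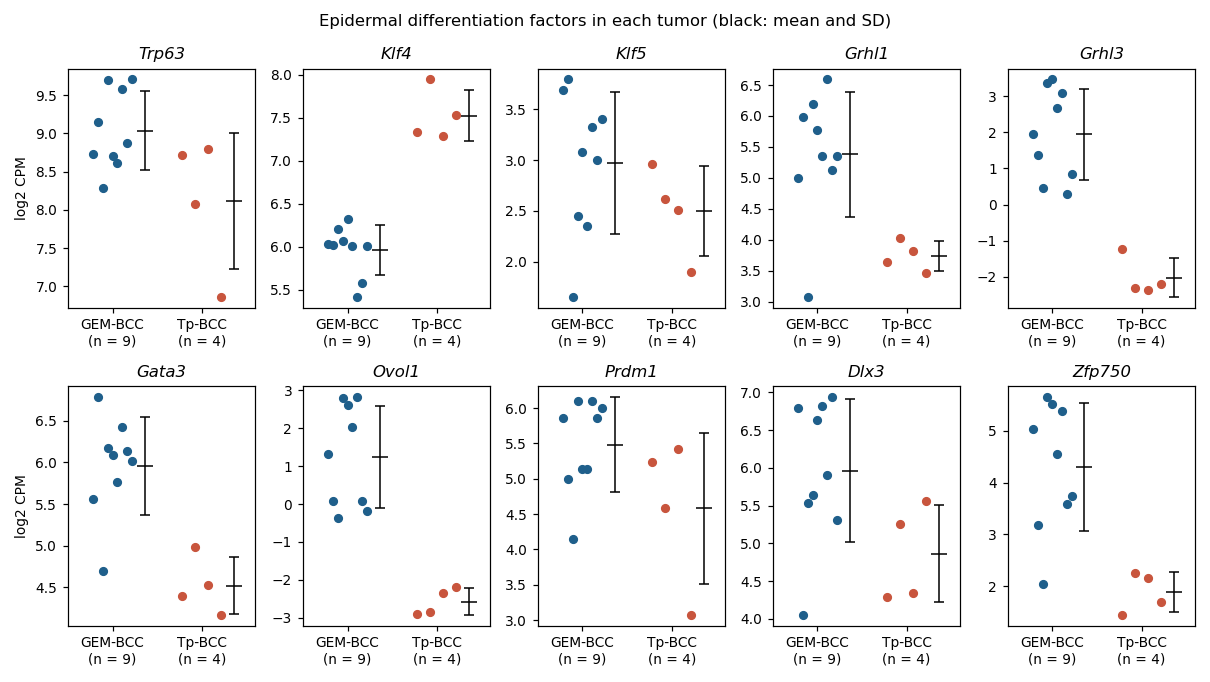
Log2 CPM (prior count 2, separate y axis for each gene) of the 10 factors in each of 9 GEM-BCC tumors (blue) and 4 Tp-BCC tumors (red), with the mean and SD of each model in black. Klf4 is higher in every Tp-BCC tumor than in any GEM-BCC tumor, Grhl3 and Ovol1 are lower in every one, and the models overlap in the other 7 genes.

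The factor of basal identity came first. Trp63 encodes p63, which keeps basal keratinocytes in their lineage and opens epidermal enhancers; its long and short isoforms are summed in these gene counts. It was measured at 311.5, 471 and 836 CPM (lowest, median and highest GEM-BCC tumor) and at 422 in TP1, 271 in TP2, 443 in TP3 and 116 in TP4. TP1 and TP3 lay within the GEM-BCC range, and TP2 and TP4 below it. The means were 557 ± 203 (SD, n = 9) and 313 ± 152 CPM (n = 4). The log2 fold change was −0.83 (SE 0.36, edgeR adjusted p = 0.112; exact 2-sided permutation p = 0.0336 before adjustment). With TP2 and TP4 alone as Tp-BCC tumors it was −1.52 (edgeR adjusted p = 0.015) and with TP1 and TP3 alone −0.37 (0.548), and with the GC trend removed from every library −0.43 (0.237). With TP2 and TP4 alone 6119 of 14275 tested genes passed, and with TP1 and TP3 alone 1484 of 14305. Those 2 pairs differ in their GC trend, and the transcripts of Trp63 are 44.2% GC. GEM1, whose trend was also upward, had 424.5 CPM, inside the range of the other GEM-BCC tumors. The part of GC content in the Trp63 values was not tested. Over 27 alternatives its adjusted p ran from 0.015 to 0.599.

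Klf5, which is active in basal and proliferating epithelial cells, was the member with the smallest fitted change. Its GEM-BCC tumors ran from 3.07 through a median of 8.40 to 13.8 CPM, and the Tp-BCC tumors had 7.71, 6.04, 5.63 and 3.64 CPM (TP1 to TP4). All 4 transplanted tumors fell inside the GEM-BCC range. The log2 fold change was −0.57 (SE 0.38, edgeR adjusted p = 0.301), and it did not pass in any of 27 alternatives (adjusted p 0.131 to 0.772).

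The grainyhead-like factors bind 1 motif and act in adhesion, wound closure and barrier formation. Grhl1, which controls desmosomal cadherin genes, reached 8.38, 41.0 and 96.3 CPM as the lowest, median and highest GEM-BCC values. The transplanted tumors had 12.4, 16.2, 14.0 and 10.99 CPM (TP1 to TP4). They lay close together, below 8 of the 9 GEM-BCC tumors and above GEM3. The mean was 49.4 ± 25.8 (n = 9) in GEM-BCC and 13.4 ± 2.23 CPM (n = 4) in Tp-BCC, 3.68-fold apart, with a log2 fold change of −1.88 (SE 0.46, edgeR adjusted p = 0.0109). The adjusted p was 0.0825 with TP1 and TP3 and 0.0347 with TP2 and TP4 as the Tp-BCC tumors (−1.91 and −1.86), and 0.056 by exact permutation over all genes (range over 27 alternatives 1.32e-04 to 0.378). Relative to the 3 keratins Krt5, Krt14 and Krt17 it was 0.0969 by the same permutation. Without GEM3 the log2 fold change was −2.06 and without TP2 −2.01, both past the fold threshold.

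Grhl3, needed for skin barrier formation and neural tube closure, was among the members nearly absent from Tp-BCC tumors. GEM-BCC tumors ran from 1.15 through a median of 3.81 to 10.9 CPM, or 36 to 383 counts. The transplanted tumors had 6, 2, 2 and 2 counts, which are 0.353, 0.129, 0.120 and 0.143 CPM. Every Tp-BCC tumor was below every GEM-BCC tumor. Pooled over tumors, 1482 counts stood against 12, a ratio of 27.7 at matched depth (95% counting interval 15.8 to 53.7, which covers counting error only and not the spread between tumors). The fitted log2 fold change was −4.74 (SE 0.84, edgeR adjusted p = 0.00133; exact 2-sided permutation p = 0.0014, the smallest that splits of 13 tumors into 9 and 4 can give). It passed in all 26 alternatives that could test it, with an adjusted p up to 0.0353. A stricter low-count filter, described in the last section, left Grhl3 out because its Tp-BCC counts were too low. Grhl3 entered the main test through GEM-BCC tumors only, so these passes are not independent of how it was selected.

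Another relative, Grhl2, which maintains epithelial junctions, was measured for comparison and is no member. It had 100 ± 30.2 CPM (n = 9) in GEM-BCC and 93.3 ± 33.1 CPM (n = 4) in Tp-BCC tumors, a log2 fold change of −0.10 (SE 0.29, edgeR adjusted p = 0.838). It was chosen after its values were seen. Whether it differed in its change from Grhl1 or Grhl3 was not tested.

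Ovol1 and Zfp750 act downstream of p63 in cells that leave the basal layer; Ovol1 is a zinc finger repressor that lets keratinocytes stop dividing, and Zfp750 switches on late differentiation genes. Ovol1 was measured at 0.696, 2.40 and 6.97 CPM (lowest, median and highest GEM-BCC tumor, 22 to 219 counts). TP1 and TP2 had 1 count each and TP3 and TP4 had 2 each, which are 0.0589, 0.0643, 0.120 and 0.143 CPM. The models did not overlap, and the transplanted tumors were at the limit of detection. The pooled ratio was 35.5 (951 against 6 counts, 95% counting interval 16.3 to 97.1). The fitted log2 fold change of −5.05 (SE 0.94, edgeR adjusted p = 0.00203; exact 2-sided permutation p = 0.0014) depends on how so few reads are smoothed and is no measure of size. Ovol1 passed in all 26 alternatives that could test it (adjusted p up to 0.0448). The same stricter filter left it out, and it too entered the main test through GEM-BCC tumors only, so the same limit holds.

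Zfp750 ran from 4.05 through a median of 23.2 to 49.97 CPM over the GEM-BCC tumors. TP1 to TP4 had 2.65, 4.69, 4.37 and 3.14 CPM, from 44 to 73 counts. Of the GEM-BCC tumors, 8 were above all Tp-BCC tumors, and GEM3 was within their range. The means of 25.7 ± 17.3 (n = 9) and 3.71 ± 0.975 CPM (n = 4) were 6.93-fold apart. The log2 fold change was −2.79 (SE 0.62, edgeR adjusted p = 0.00613). With only TP1 and TP3 as Tp-BCC tumors it was −2.89 with an adjusted p of 0.0621, and with only TP2 and TP4 −2.71 and 0.025 (range over 27 alternatives 2.79e-06 to 0.293).

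Klf4, a zinc finger factor needed for the skin barrier and high in differentiating suprabasal cells, went the opposite way. Its GEM-BCC values were 42.6, 64.8 and 79.95 CPM (lowest, median and highest), the narrowest spread of the 10 genes. The transplanted tumors had 162 (TP1), 247 (TP2), 156 (TP3) and 185 CPM (TP4). Every one of them was above every GEM-BCC tumor. The mean was 63.3 ± 11.6 (n = 9) in GEM-BCC and 187 ± 41.5 CPM (n = 4) in Tp-BCC, 2.96-fold higher, with a log2 fold change of 1.57 (SE 0.19, edgeR adjusted p = 5.72e-05; exact 2-sided permutation p = 0.0014).

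The transcripts of Klf4 are 62.5% GC, and its values were larger in TP2 and TP4 than in TP1 and TP3. GEM1, whose GC trend was also upward, had 65.3 CPM, inside the range of the other GEM-BCC tumors. The part of GC content in the Klf4 values was not tested. The log2 fold change was 1.32 with TP1 and TP3 alone (edgeR adjusted p = 0.00197) and 1.32 with the GC trend removed (2.91e-04). Relative to the summed CPM of the keratins Krt5, Krt14 and Krt17 it was 1.74 (exact 2-sided permutation adjusted p = 0.0157). Over 27 alternatives the adjusted p of Klf4 ran from 6.99e-12 to 0.119, and it passed in 26. The 0.119 came from a replicate block on tumor numbers, described in the last section. KLF4 is also made in endothelium, fibroblasts and macrophages. Over all tested genes, 11.1% were higher and 8.35% lower in Tp-BCC tumors (edgeR adjusted p under 0.05). Of 8 endothelial markers tested, 4 rose and 0 fell (Eng, Cdh5, Kdr and Emcn; median 1.04 on the log2 scale), and their summed CPM ran from 144.6 to 317.5 over the GEM-BCC tumors and from 486 to 699 over the transplanted ones, without overlap. Of 9 fibroblast markers 3 rose and 2 fell (summed CPM 12260 to 49200 and 15880 to 28790, GEM-BCC first), and of 11 macrophage markers 1 rose, Cd68 (86.2 to 445 and 230 to 458). The part of these cells in the Klf4 change was not tested.

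GATA3 guides inner root sheath cells of the hair follicle and epidermal lipid synthesis. Gata3 was measured at 25.9, 67.9 and 109.9 CPM (lowest, median and highest GEM-BCC tumor) and at 20.96, 31.7, 23.0 and 17.9 CPM in TP1 to TP4. All GEM-BCC tumors except GEM3 were above all Tp-BCC tumors. The means were 66.5 ± 23.7 (n = 9) and 23.4 ± 5.92 CPM (n = 4), 2.84-fold apart, and the log2 fold change was −1.51 (SE 0.32, edgeR adjusted p = 0.00444). It passed in 26 of 27 alternatives (adjusted p 1.61e-05 to 0.240). Relative to Krt5, Krt14 and Krt17 the change was −1.27 (exact 2-sided permutation adjusted p = 0.0497). Since GATA3 is also a T cell factor, the T cell markers stand beside it. None of the 4 tested passed edgeR (0 also at an unadjusted p under 0.05), and the 11 measured summed to 5.999 to 17.8 CPM over the GEM-BCC and 6.29 to 13.4 over the Tp-BCC tumors. The defining Cd3d, Cd3e and Cd3g were under the low-count filter, and the part of T cells in the Gata3 values was not tested.

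Prdm1 (Blimp1) marks cells late in differentiation, sebaceous progenitors and plasma cells. GEM-BCC tumors had 17.7, 57.8 and 68.8 CPM (lowest, median and highest), and TP1 to TP4 had 37.6, 24.0, 43.0 and 8.35 CPM. Only TP4 lay below the GEM-BCC range. The log2 fold change was −0.78 (SE 0.41, edgeR adjusted p = 0.19). It was −1.58 (edgeR adjusted p = 0.0263) with TP2 and TP4 and −0.27 (0.711) with TP1 and TP3 as the Tp-BCC tumors (range over 27 alternatives 0.0263 to 0.711). With TP2 and TP4 alone 6119 of 14275 tested genes passed, and with TP1 and TP3 alone 1484 of 14305. These pairs differ in their GC trend, and the transcripts of Prdm1 are 47.7% GC. With the GC trend removed the change was −0.60 (edgeR adjusted p = 0.174). The part of GC content in the Prdm1 values was not tested. B and plasma cell markers summed to 0.493 to 10.2 CPM over the GEM-BCC and 1.06 to 1.62 over the Tp-BCC tumors, and their part in Prdm1 was not tested.

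Dlx3, a homeobox factor of the hair follicle and the granular layer, varied in both models. Its GEM-BCC values were 16.5, 60.1 and 122 CPM (lowest, median and highest), and those of TP1 to TP4 were 19.4, 38.1, 20.2 and 47.05 CPM. All 4 transplanted tumors were within the GEM-BCC range, in which GEM2 was the lowest. The log2 fold change was −1.23 (SE 0.46, edgeR adjusted p = 0.0724). It passed in 4 of 27 alternatives: without GEM2 (−1.36, adjusted p = 0.0264), with counts summed per mouse (0.0444), with DESeq2 (0.0234) and with the GC trend removed (−1.55, 0.0134). With TP1 and TP3 as the Tp-BCC tumors the change was −1.88 (edgeR adjusted p = 0.0765) and with TP2 and TP4 −0.78 (0.294). Over all 27 the adjusted p ran from 0.0134 to 0.691.

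**Figure D2:**
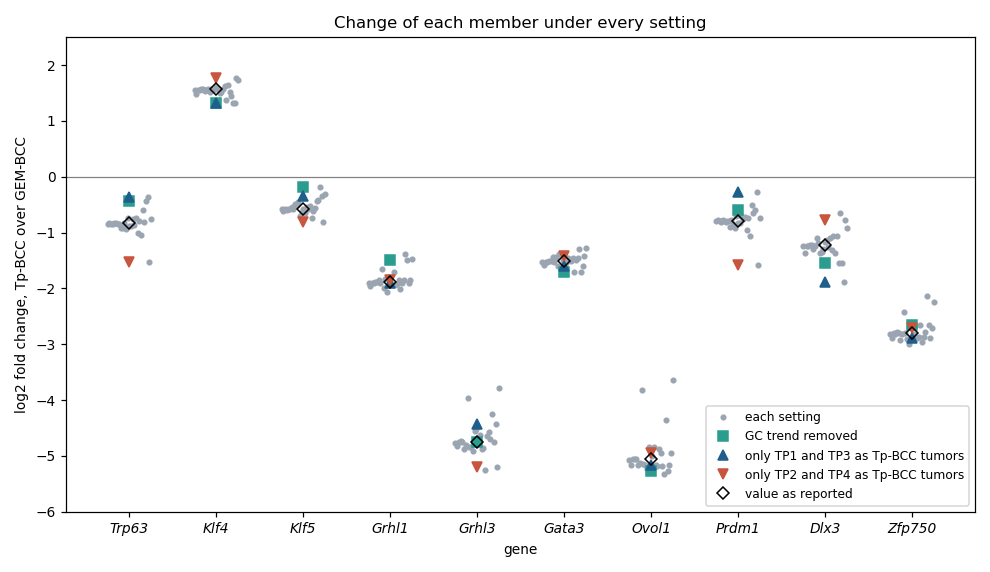
Log2 fold change (Tp-BCC over GEM-BCC) of each factor as reported (open diamond) and under each alternative setting (grey points), with the GC trend removed (square) and with the Tp-BCC tumors of downward (TP1 and TP3) or upward GC trend (TP2 and TP4) alone as triangles. No gene crosses 0, and Trp63, Prdm1 and Dlx3 are the ones in which the 2 triangles stand far apart.

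Levels can be compared between genes per length of the longest transcript (GENCODE vM21). In GEM-BCC tumors the order was Trp63 at 103.9 ± 37.8 CPM per kb (n = 9), then Dlx3 (28.0 ± 14.7), Klf4 (20.9 ± 3.84), Gata3 (20.7 ± 7.37), Grhl1 (14.2 ± 7.44), Prdm1 (9.21 ± 3.55), Zfp750 (7.96 ± 5.34), Klf5 (2.55 ± 1.08), Grhl3 (1.85 ± 1.40) and Ovol1 (1.11 ± 0.91). Between Trp63 and Dlx3 the ranges of mean ± SD did not meet, and between all other neighbours in this order they overlapped. In Tp-BCC tumors Klf4 (61.8 ± 13.7 CPM per kb, n = 4) and Trp63 (58.3 ± 28.3) led and did not differ beyond their spread, and Dlx3 (12.0 ± 5.23) came next. Gata3 (7.28 ± 1.84), Prdm1 (5.34 ± 2.93) and Grhl1 (3.87 ± 0.644) followed, then Klf5 (1.72 ± 0.499) and Zfp750 (1.15 ± 0.302). The spread of Prdm1 overlapped those of Gata3 and Grhl1, which did not overlap each other. Grhl3 (0.0667 ± 0.0401) and Ovol1 (0.0324 ± 0.0139) stood below all others. Klf4 thus ranked behind Trp63 and Dlx3 per length in the GEM-BCC means. In the Tp-BCC means it ranked ahead of Trp63, by less than their spread. By tumor, Klf4 was ahead of Trp63 per length in TP2 and TP4, and Trp63 was ahead of Klf4 in TP1 and TP3. TP2 and TP4 were the Tp-BCC libraries of upward GC trend. Transcripts are 62.5% GC for Klf4 and 44.2% for Trp63. The part of GC content in this order was not tested.

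Within the GEM-BCC model Ovol1, Grhl3, Zfp750 and Grhl1 varied most. The SD of log2 CPM over the 9 tumors was 1.36 for Ovol1, 1.26 for Grhl3, 1.24 for Zfp750 and 1.01 for Grhl1, which are percentiles 95.5, 94.2, 93.9 and 90.2 of all tested genes, a place that low counts help to reach. Klf4, at 0.29, was at percentile 20.3. The 3 highest values of Ovol1, of Grhl3 and of Zfp750 were all in GEM4, GEM5 and GEM7. In GEM3 all of Grhl1, Gata3, Zfp750, Klf5, Trp63, Prdm1 and Ovol1 had their lowest GEM-BCC value.

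Tumors from 1 mouse differed several-fold in some of the factors. In GEM7 against GEM8, Grhl3 was 7.31-fold, Ovol1 7.04-fold, Zfp750 3.47-fold and Grhl1 2.77-fold higher, while Dlx3 was 2.03-fold higher in GEM8. In GEM2 against GEM3, Grhl1 was 7.51-fold, Klf5 4.50-fold and Gata3 4.24-fold higher, and Dlx3 was again the opposite, 2.79-fold higher in GEM3. These are pairs of single libraries with no replicate of their own. Klf4 differed by at most 1.136-fold in the same pairs.

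The plot of profiles by tumor sets these factors beside the late cornified genes. The summed CPM of these genes, the envelope proteins, proteases and lipid enzymes of the outer layers, ran from 40.7 to 616 over the GEM-BCC and from 50.1 to 77.6 over the Tp-BCC tumors, so the Tp-BCC tumors lay within the low end of the GEM-BCC range. Over the 7 GEM-BCC mice, the mean log2 score of the 19 tested late genes was related to Grhl1 with Pearson r = 0.866 (permutation p = 0.0139, adjusted over 10 relations 0.126; Spearman rho 0.857, permutation p = 0.0238; r = 0.646 without the 2 farthest mice). For Ovol1 r was 0.807 (permutation p = 0.0313, adjusted 0.126; rho 0.857, p = 0.0238; r = 0.594 without the 2 farthest). For Grhl3 r was 0.802 (permutation p = 0.0379, adjusted 0.126; rho 0.714, p = 0.0881; r = 0.62 without them). None of the 10 relations passed after adjustment.

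**Figure D3:**
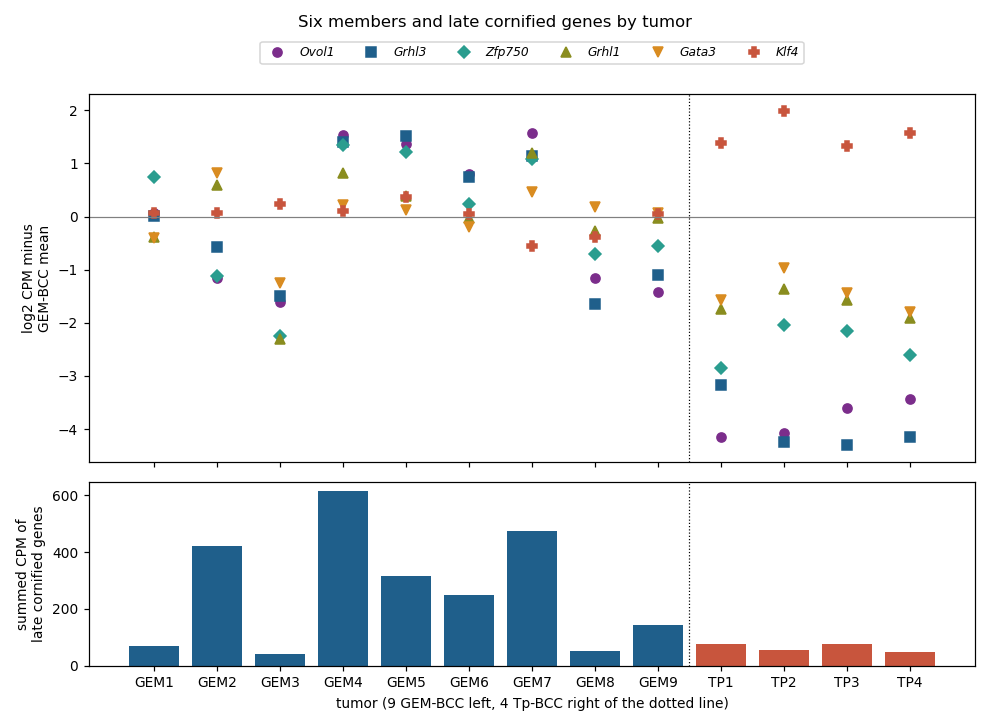
Upper panel, log2 CPM minus the GEM-BCC mean for 6 of the factors in each tumor; lower panel, summed CPM of the late cornified genes in the same tumors (bars from 0, blue for GEM-BCC and red for Tp-BCC, 1 library per bar). Ovol1, Grhl3 and Zfp750 are highest in GEM4, GEM5 and GEM7, and in the 4 Tp-BCC tumors Klf4 is above 0 and the other 5 are below it.

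The genes most like each factor over the 9 GEM-BCC tumors were taken from 12081 candidates by Pearson correlation of log2 CPM, as a description in which high values are partly due to the number of candidates. For Ovol1 they were Sh3gl2 (r = 0.974), Rab6b (0.969) and Fam89a (0.94), and for Grhl3 Zbtb42 (0.973), Rab6b (0.959) and Fam89a (0.955), so Rab6b and Fam89a were on both lists. For Grhl1 they were Trim26 (0.979), Ppl (0.977), which encodes the envelope protein periplakin, and Ptprf (0.973). For Zfp750 they were Atp6v0a4 (0.967), Fam210b (0.964) and Jup (0.961), which encodes the junction protein plakoglobin.
Klf4 was most like Ticam2 (0.959), Kcns3 (0.938) and Rbpms (0.878), Trp63 like Clcn3 (0.968), Prrc2c (0.967) and Dnah2 (0.963), and Klf5 like Arhgap27 (0.957), Taf8 (0.954) and Vav2 (0.939). Gata3 was most like Tshz1 (0.97), Cat (0.961) and Slc25a36 (0.952), Prdm1 like Srpk1 (0.986), Abcc5 (0.986) and Plxnb1 (0.978), and Dlx3 like Mgat5b (0.95), Rmnd5b (0.945) and Preb (0.935). The genes most like Zfp750 had unequal changes between models. Jup had a log2 fold change of −0.03 (edgeR adjusted p = 0.961) and Atp6v0a4 of −3.57 (0.0107).

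Other epidermal transcription factors were measured for context. Of the 28 reported here, all tested, 7 fell in Tp-BCC tumors, 5 of them past the fold threshold, and 21 did not pass (median log2 fold change −0.21). Over all tested genes 8.35% were lower and 3.21% were called lower. Of the 5, Msx2, Ehf and Foxn1 reached 10 counts only in GEM-BCC tumors and so entered the test through the model in which they were high. Those past the test with the highest levels included Runx1, a hair follicle factor (−2.46, SE 0.27, edgeR adjusted p = 2.17e-05), Tfap2c, a regulator of keratinocyte enhancers (−0.76, SE 0.26, 0.0491), Mxd1, an antagonist of MYC (−1.01, SE 0.22, 0.00594), and Pou3f1, a POU factor of suprabasal keratinocytes (−2.89, SE 0.61, 0.0043). Runx1 did not overlap between models, with GEM-BCC tumors at 60.4 to 154 CPM and the transplanted ones at 16.9 to 20.7. Msx2, a homeobox factor of the hair follicle, had at most 2 counts in any Tp-BCC tumor and at least 25 in each GEM-BCC tumor (edgeR adjusted p = 6.21e-05). The other 2 that fell, named after their values were seen, were Foxn1, a factor of hair shaft differentiation (−3.47, SE 0.96, edgeR adjusted p = 0.0204), and Ehf, an ETS factor of epithelia (3 to 182 counts against 0 to 2, 0.00821). Tfap2a and Hes1, also chosen after their values were seen, had log2 fold changes of −0.03 (edgeR adjusted p = 0.952) and 0.05 (0.883).

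**Figure D4:**
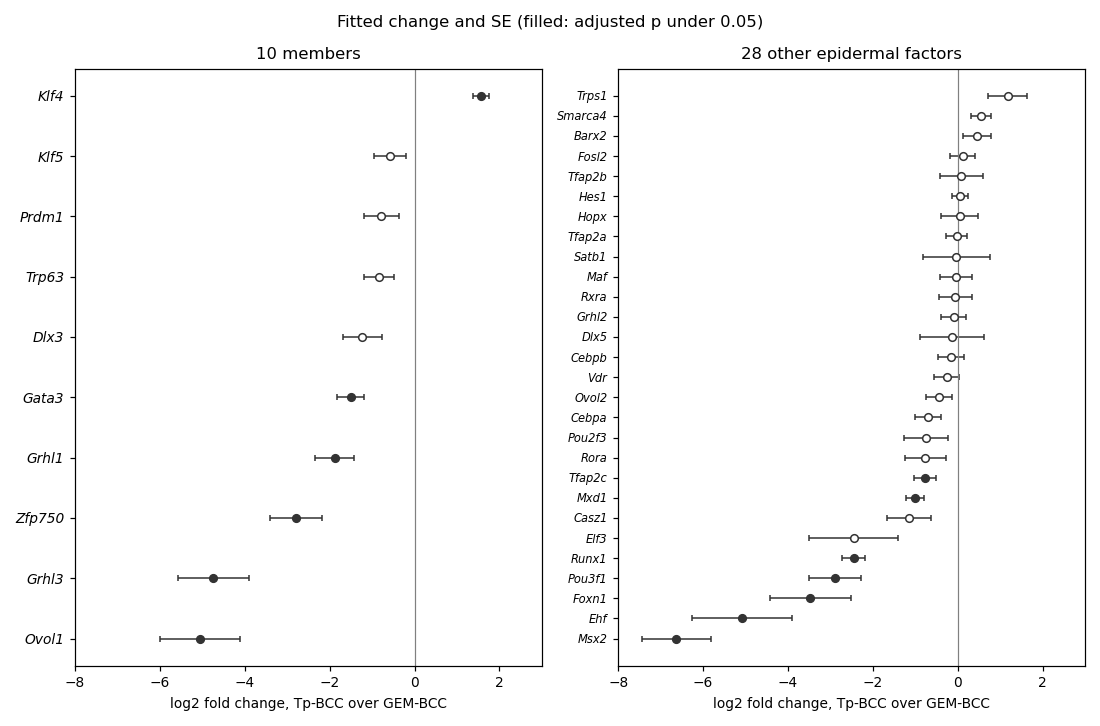
Fitted log2 fold change (Tp-BCC over GEM-BCC) with its SE for the 10 factors (left) and 28 other epidermal factors (right); filled points had an edgeR adjusted p under 0.05. For Ovol1, Msx2 and Ehf, with at most 2 counts in any Tp-BCC tumor, the position is a fitted value and not a measured size.

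The layers that these factors govern were counted from lists chosen with earlier results known. Beside these counts, 8.35% of all tested genes were lower and 11.1% higher in Tp-BCC tumors (edgeR adjusted p under 0.05). Of 20 basal genes, most of them p63 targets, 6 fell and 1 rose (median −0.52). Krt15, a keratin of basal and bulge cells, changed by −4.03 (SE 0.56, edgeR adjusted p = 2.08e-04), the desmosomal Perp by −2.18 (0.0233) and Dsc3 by −3.04 (0.00458), the kinase Ripk4 by −0.76 (0.0452), and the hemidesmosomal Col17a1 by 2.00 (0.012). Of 14 early suprabasal genes 5 fell and 0 rose (median −1.51), among them Krt10 (−2.80, edgeR adjusted p = 0.0104), Dsg1a (−2.61, 0.0036) and Dsg1b (−2.02, 0.0088). Krt77 and Dsc1 had at most 1 and 3 counts in any Tp-BCC tumor (0.0135 and 0.0138), and both entered the test through GEM-BCC tumors alone.
Of 35 late cornified genes, 19 could be tested, of which 7 fell and 0 rose (median −1.73). They included the envelope precursor Sprr1a (−5.37, edgeR adjusted p = 0.0174), the ceramide synthase Cers3 (−1.15, 0.0468), the protease Klk5 (−2.97, 0.0418) and the lipid transporter Abca12 (−3.29, 0.0323). Klk7, a protease of desquamation, ranged over 2 to 5726 counts among GEM-BCC tumors and had 0 or 1 in the transplanted ones (0.00309). Spink5, which encodes the inhibitor of these proteases and was named after its values were seen, was at 0 counts in every Tp-BCC tumor and at least 17.9-fold lower than the GEM-BCC mean and at least 4.41-fold lower than the GEM-BCC median, with 3 counts set as the floor of each library. Of the 7 that fell, Klk7, Spink5 and Tgm5 reached 10 counts only in GEM-BCC tumors and so could be tested only through the model in which they were high.

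Hair follicle and sebaceous genes, the setting of Gata3, Dlx3 and Prdm1, were counted as well, beside the same shares of 8.35% lower and 11.1% higher over all tested genes. Of 12 tested hair follicle genes 5 fell and 1 rose (median −2.34, or −1.47 with genes at 3 counts or fewer set to their bound). Krt79 (−6.05, edgeR adjusted p = 0.00138) and Krt71 (−2.65, 0.0019) fell, Krt75 went from 141 to 9591 counts to between 0 and 3 (3.35e-04), and Lef1, the Wnt effector of the hair matrix, rose by 2.99 (SE 0.30, 1.01e-05). Foxn1, Krt73 and Krt75, 3 of the 5 that fell, reached 10 counts only in GEM-BCC tumors. Of 7 sebaceous genes 1 fell (Cidea, −3.50, 0.0426). Of 12 BCC tumor cell markers 1 rose, the Hedgehog effector Gli2 (1.28, 0.00313), and 11 did not pass. Adipocyte markers rose in 4 of 4 tested, to 16.0 to 226 summed CPM in Tp-BCC tumors from 0.791 to 5.33, with TP2 the highest, and 1 of 4 skeletal muscle markers rose (Atp2a1), with TP4 the highest at 147 summed CPM. Of 2 melanocyte markers 0 passed. How the tissue around subcutaneous tumors enters the factors' values was not tested.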

How the data were processed

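Poly(A) RNA of 13 tumors was sequenced, 1 library per tumor. The authors aligned reads with Bowtie2 2.3.4.3 to GRCm39 transcripts and quantified them with RSEM 1.3.1 in its strand-specific mode (tools and build also in the submitters' processing notes), and the deposited values are expected counts per gene, not normalized. Rounding to whole numbers and all tests used R 4.3.3. Of 21100 genes, 16687 had a value in all tumors, and a minimum of 10 counts in 4 or more of them was required for testing. A further 1932 had values in GEM-BCC tumors only, 65 in Tp-BCC tumors only and 2416 in no tumor. These were left out of the main test, its shares and the list sums. The late cornified sums therefore cover 24 of the 35 listed genes. How missing values arose is not given in the sources used here. Models were compared with edgeR 4.0.16 (TMM, robust quasi-likelihood F test, no covariate), with Benjamini-Hochberg adjustment over all tested genes. The SE is the log2 fold change divided by the square root of F. CPM are per TMM-scaled library, and log2 CPM has a prior count of 2. Separate tumors are the replicates. Depth was 15388027 to 32629102 counts, so at 3 counts or fewer a fold is not measured.

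Members and lists were chosen with earlier results of these data known. Named are all members, the 3 genes most correlated with each, and from each list up to 5 genes past the test of highest level. GC content came from GENCODE vM21 transcripts (97.9% of tested genes), and its trend was removed by lowess (span 0.3). Exact 2-sided permutations covered every split of the tumors into 9 and 4. Like the main fit, they took GEM2 and GEM3, and GEM7 and GEM8, as separate tumors and ignored that each pair shares a mouse. The correlations with late genes, planned as descriptions, were given permutation p-values over mice. Alternatives were other scaling factors, filters and dispersions, DESeq2 1.42.0, counts per mouse, each tumor left out, a replicate block, GC correction and a fold threshold of 1; Tp-BCC tumors in pairs and scaling to keratins were added after the data were seen. The fit was tested on simulated data. In the list of other epidermal factors, 2 genes are not reported here for a reason unrelated to their values, and its counts and median are without them. Immune, stromal and other marker lists were counted in the same way.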

Additional observations from a re-analysis of the deposited data

Results flagged for a closer look

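Among 20 groups of values (10 factors in 2 models), 2 held a tumor far from the others of its model, where chance gives about 1 in 20. Grhl1 in GEM3 had a log2 CPM of 3.08, and the next GEM-BCC tumor 5.01, a gap of 0.549 of the whole range (limit 0.493 for 9 tumors). Grhl3 in TP1 had a log2 CPM of −1.22, above the other Tp-BCC tumors, of which the next had −2.20, a gap of 0.858 of the range (limit 0.829 for 4 tumors). The TP1 value rests on 6 counts against 2 in each of the others.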

How the results depend on the processing

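Over 268 recalculated values of the 10 factors (each factor under each alternative), all kept their direction; 254 kept their side of the threshold, 6 moved past it and 8 fell short of it. The number of factors with an adjusted p under 0.05 was 6, and 4 to 8 under the alternatives other than the replicate block. It was 4 of 8 tested with at least 10 counts in 10 tumors, a filter under which Grhl3 and Ovol1 could not be tested and 1 factor was called in place of 3. With a fold threshold of 1, 6 were called. Without single tumors, left out in turn, there were 6 to 7 factors past the threshold and 3 to 4 called, the fourth being Grhl1 without GEM3 or without TP2. DESeq2 had 7 past and 3 called. With TP1 and TP3 as the Tp-BCC tumors 4 passed and 2 were called, and with TP2 and TP4 8 passed and 3 were called. Over all tested genes, 1484 of 14305 passed with TP1 and TP3 and 6119 of 14275 with TP2 and TP4. The main fit had 2792 of 14390.

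The labels number tumors in both models, and a replicate block on that number left 2 factors past the threshold, Grhl3 and Ovol1, and 178 of 14390 genes in place of 2792. Equal numbers name different tumors of different mice, their deviations correlated at −0.381, −0.122, −0.101 and −0.179, and the numbers therefore do not pair the tumors. Under the block all 10 fitted changes were nearer to 0, among them Klf4 at 1.45, Gata3 at −1.30, Grhl1 at −1.39, Zfp750 at −2.13, Dlx3 at −0.64, Grhl3 at −4.26 and Ovol1 at −4.35. The highest edgeR adjusted p of Klf4 (0.119), Gata3 (0.240), Grhl1 (0.378) and Zfp750 (0.293) came from it. Over all tested genes the number called was 439 with the stricter filter, 1989 with a fold threshold of 1 and 1850 with TP2 and TP4 alone, in place of 801. Scaling moved the median of all genes by less than 0.1 (−0.03 to −0.09). With 1 to 6 counts per Tp-BCC library, the size of the change of Ovol1 and Grhl3 is known only within wide counting intervals.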
